A study of Mus musculus with 6 samples.

Results

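The genes studied here are 10 markers of pericytes, the mural cells wrapped around capillaries, in the hearts of mice with and without caveolin-1. They are Pdgfrb, Pdgfb, Rgs5, Rgs4, Cspg4, Notch3, Abcc9, Kcnj8, Vtn and Higd1b. They were taken by name, and every probe set that the array's annotation assigns to 1 of these symbols and to no other was kept. That gave 22 of the 45101 probe sets on the array, with all 10 genes present: 2 genes had 1 probe set, 5 had 2, 2 had 3 and Rgs5 had 4. The RNA came from whole heart tissue of male mice aged 5 to 6 months, fasted for 6 hours, and was hybridised to Affymetrix expression arrays, 1 per heart. There were 3 wild-type hearts and 3 Cav1 knockout hearts. Cav1 encodes caveolin-1, the coat protein of caveolae, which are abundant in endothelial and mural cells. The strain, the deleted part of Cav1 and whether each heart is from a separate animal are not given in the sources used here, so that a p-value here reflects the variation among these 6 samples, which may be technical in part.

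Pericytes are recruited to new capillaries by endothelial cells, which release PDGF-B, the product of Pdgfb. Pericytes carry its receptor, PDGFR-beta, encoded by Pdgfrb. Once attached, they share a basement membrane with the endothelium, respond to its Notch ligands through Notch3, and regulate capillary tone and stability. The set is mixed with respect to cell type. Pdgfb is the endothelial side of the pair, Abcc9 also encodes the sulfonylurea receptor of cardiomyocytes, and Vtn encodes a plasma protein made mainly in liver. Rgs5, Notch3, Kcnj8 and Pdgfrb are shared with vascular smooth muscle, and Pdgfrb with fibroblasts. In RNA from whole tissue, fewer cells of a type and less RNA per cell cannot be told apart.

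Values are intensities on a linear scale after quantile normalisation. Differences are knockout minus wild type after adding 16 and taking log2, a scale that compresses changes at low intensity. The cardiac identity of the tissue was checked only coarsely, on 12 cardiomyocyte genes, among them Myh6, Tnnt2 and Actc1. All 12 were in the tested upper 50% of probe sets, which is a low bar for tissue identity. Their differences between the groups, which do not bear on identity, lay between -0.043 and 0.023. Cav1 itself had intensities of 3853, 3836 and 4216 in wild type against 118, 101 and 101 in knockout hearts. Wild type replicate 1 had a lower trimmed mean of the deposited intensities, 154.6, than the other arrays, 163.1 to 167.6.

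Among the pericyte markers, Higd1b rose in the knockout hearts and no other member passed the test in either direction. Of the 22 probe sets 1 was higher, 0 were lower and 21 did not pass (limma, Benjamini-Hochberg adjusted p under 0.05 over all 22519 probe sets tested). Over all probe sets tested, 2.36% were called higher, 0.813% lower and 3.17% in either direction, so 1 call among 22 is close to the background share. Scaling shifts this split: 531 probe sets were higher and 183 lower after quantile normalisation, 577 and 58 as deposited, and 585 and 41 centred on the array median, while the members stayed at 1 and 0. At an unadjusted p under 0.05, 2 member probe sets were higher and 2 lower, where 10.3% of all probe sets were higher and 9.75% lower. After quantile normalisation the groups did not overlap at 4 member probe sets, 2 with the knockout hearts above and 2 with them below. Over all probe sets tested the shares were then 12.3% above and 14% below. The split of the members depends on the scaling. As deposited, the knockout hearts also lay above at Rgs5 1417466_at and Cspg4 1423341_at, while the groups overlapped at Abcc9 1435751_at. That scaling moved the median of all probe sets tested to 0.032. The matching shares over all probe sets are not given here, so this change cannot be set against the array as a whole. After quantile normalisation the median difference of the 22 probe sets was 0.0062, that of all probe sets tested -0.0096.

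**Figure D1:**
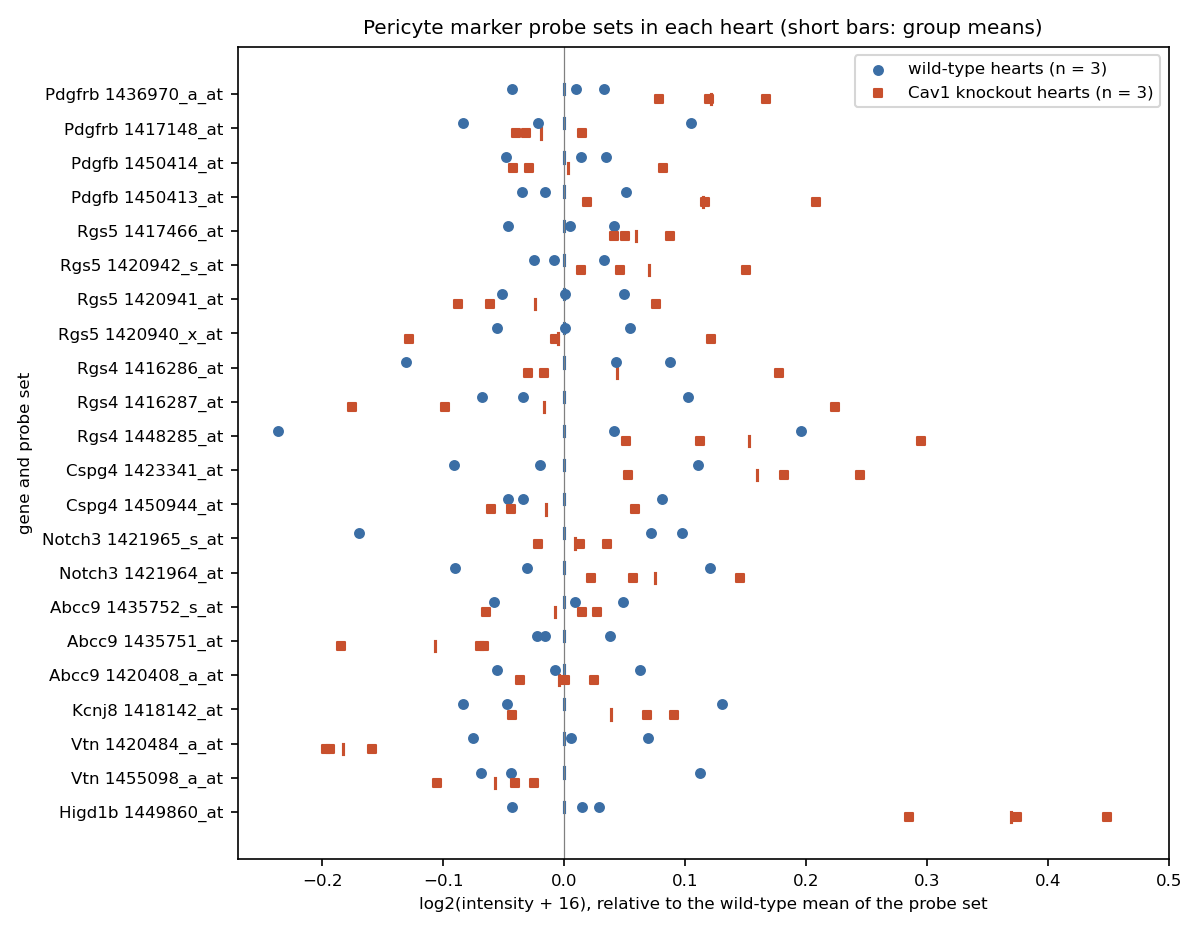
Each of the 22 pericyte marker probe sets (rows) in each heart, as log2(intensity + 16) relative to the wild-type mean of that probe set; blue circles are the 3 wild-type hearts, red squares the 3 Cav1 knockout hearts, and short bars the group means. In these quantile-normalised values the knockout hearts lie apart from the wild-type hearts to the right for Higd1b and one Pdgfrb probe set and to the left for one Vtn and one Abcc9 probe set, while the other 18 overlap.

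Higd1b encodes a small protein of the hypoxia-inducible domain family and is used as a marker of pericytes. Its single probe set read 153, 155 and 147 in wild type against 201, 213 and 188 in the knockout hearts. Every knockout heart lay above every wild-type heart. The mean rose by 32.4%, from 152 ± 4.41 to 201 ± 12.3 (SD, n = 3 each). The log2 difference came to 0.37 (SE 0.065, 95% interval 0.22 to 0.52, limma, Benjamini-Hochberg adjusted p = 0.0208). The call held with all 6 hearts under every other setting tried, with limma adjusted p from 0.00979 to 0.0305. It did not hold in the sets of 5 without knockout replicate 1 (limma adjusted p = 0.102), without knockout replicate 2 (0.0978) or without wild type replicate 3 (0.0803), where the differences were 0.37, 0.33 and 0.35.

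The other genes of the Higd family on the array did not pass. Higd1a, the hypoxia-responsive mitochondrial relative of Higd1b, differed by 0.0068 (limma adjusted p = 0.961) at its brightest probe set. Higd2a, a respiratory chain assembly factor, differed by -0.091 (limma adjusted p = 0.278). The profiles nearest to that of Higd1b across the 6 hearts, by Euclidean distance of centred log2 values among 19750 named probe sets, belonged to Filip1l, Ly6e and Cyth3. Their distances were 0.072, 0.084 and 0.084, and their differences 0.35, 0.33 and 0.35.

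The PDGF-B ligand and its receptor gave no call. Pdgfrb was measured by 2 probe sets. The brighter one, 1436970_a_at, read 1565, 1539 and 1483 in wild type against 1615, 1662 and 1718 in the knockout hearts. Here all 3 knockout hearts lay above the wild-type hearts, by a margin that is small against the level. The means were 1529 ± 41.7 and 1665 ± 51.8 (SD, n = 3 each), and the difference of 0.12 (SE 0.042, 95% interval 0.027 to 0.22) had a limma adjusted p of 0.158. The other Pdgfrb probe set, 1417148_at, read 357, 311 and 325 in wild type against 334, 323 and 321 in knockout. Those groups overlapped, and the difference was -0.019 (95% interval -0.16 to 0.12, limma adjusted p = 0.883). The 2 probe sets of the receptor thus differed in sign, and neither passed.

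Pdgfb, the ligand, read 512, 490 and 520 in wild type against 497, 537 and 492 in knockout at its brighter probe set, 1450414_at. The groups overlapped, with a difference of 0.0035 (95% interval -0.12 to 0.13, limma adjusted p = 0.977). At the weaker probe set, 1450413_at, the wild-type hearts read 107, 106 and 113 and the knockout hearts 119, 128 and 110. Knockout replicates 1 and 2 lay above the wild-type range and replicate 3 within it (difference 0.11, 95% interval -0.046 to 0.27, limma adjusted p = 0.389). Of the 7 genes of PDGF ligands and receptors, 0 passed at the adjusted threshold, and 2 were higher and 0 lower at an unadjusted p under 0.05. Those 2 were Pdgfrl, a PDGF receptor-like gene, with a difference of 0.27 (limma adjusted p = 0.138), and Pdgfrb. The list's median was 0.12, beside -0.014 for the 11486 genes tested. Pdgfc, a ligand of PDGFR-alpha, stood at 0.25 and Pdgfra, its receptor on fibroblasts, at 0.12, with limma adjusted p of 0.252 and 0.524.

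No probe set for a regulator of G protein signalling passed. Rgs5, a GTPase-activating protein for G-alpha subunits and one of the most used pericyte markers, had 4 probe sets. The brightest, 1417466_at, read 7106, 6928 and 6686 in wild type against 7340, 7149 and 7106 in knockout. The highest wild-type heart and the lowest knockout heart shared a value after quantile normalisation, so the groups touched. The means were 6907 ± 211 and 7198 ± 124 (SD, n = 3 each), with a difference of 0.060 (SE 0.032, 95% interval -0.012 to 0.13, limma adjusted p = 0.322). As deposited the readings were 7038, 6970 and 6706 in wild type against 7333, 7159 and 7100 in knockout. Those groups did not overlap, and the difference was again 0.060 (limma adjusted p = 0.319). The other 3 Rgs5 probe sets differed by 0.070, -0.024 and -0.0047, with overlapping groups and limma adjusted p from 0.387 to 0.974. Of these, 1420942_s_at and 1420940_x_at carry suffixes that mark probes able to match further transcripts. Such a suffix is also carried by the brightest probe sets of Notch3, 1421965_s_at, and Abcc9, 1435752_s_at. Outside the members it is carried by those of Colec11 and Smad1, among others.

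Rgs4, a related regulator also found in neurons, read 220, 250 and 258 in wild type against 239, 276 and 237 in knockout at its brightest probe set. The groups overlapped there (difference 0.044, 95% interval -0.14 to 0.23, limma adjusted p = 0.787) and at its other 2 probe sets, which differed by -0.016 and 0.15. The weakest of these, 1448285_at, had a wild-type mean of 45.2 ± 9.08 (SD, n = 3), a spread of 20.1% of the mean and the widest among the members. Of the 10 R4 family genes listed, 4 were bright enough to be tested and 0 of them passed, also at an unadjusted p under 0.05. Rgs2, which restrains Gq signalling in vascular muscle, had the largest difference in size among these 4, -0.27 (limma adjusted p = 0.258).

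For Cspg4 and Notch3, the surface markers of mural cells, no difference passed. Cspg4 encodes the NG2 proteoglycan. At 1423341_at it read 150, 159 and 175 in wild type against 194, 168 and 185 in knockout. Knockout replicate 2 fell within the wild-type range and the other 2 knockout hearts lay above it (difference 0.16, SE 0.077, 95% interval -0.015 to 0.33, limma adjusted p = 0.285). As deposited, knockout replicate 2 read 174 and the highest wild-type heart 173, so the groups did not overlap. The difference was then 0.22 (limma adjusted p = 0.215), and 0.24 centred on the array median (limma adjusted p = 0.210). At 1450944_at the wild-type hearts read 149, 137 and 135 and the knockout hearts 136, 134 and 147, with a difference of -0.015 (95% interval -0.17 to 0.14, limma adjusted p = 0.916). After quantile normalisation the 2 probe sets of Cspg4 thus had opposite signs within their spread.

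Notch3, the Notch receptor of mural cells, read 286, 291 and 239 in wild type against 278, 267 and 274 in knockout at 1421965_s_at. The knockout hearts lay inside the wild-type range (difference 0.0088, 95% interval -0.16 to 0.18, limma adjusted p = 0.959). Its weaker probe set differed by 0.075 (95% interval -0.098 to 0.25, limma adjusted p = 0.599). Of 14 genes for Notch receptors, ligands and targets, 0 passed, while 4 were higher and 0 lower at an unadjusted p under 0.05, and the median was 0.087. Those with the smallest p were the ligand Dll1 at 0.29 (limma adjusted p = 0.0603), Notch1 at 0.22 (0.0692) and the ligand Jag1 at 0.27 (0.113). Dll1 passed with the intensities as deposited (0.36, limma adjusted p = 0.0362) or centred on the array median (0.37, limma adjusted p = 0.0355), the one gene of the list to do so.

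Kcnj8 and Abcc9 encode the pore, Kir6.1, and the sulfonylurea receptor, SUR2, of the vascular ATP-sensitive potassium channel. Kcnj8 read 558, 573 and 650 in wild type against 632, 575 and 622 in knockout, so the knockout hearts lay within the wild-type range (difference 0.039, 95% interval -0.11 to 0.19, limma adjusted p = 0.772). Abcc9 read 3270, 3362 and 3122 in wild type against 3107, 3283 and 3313 in knockout at its brightest probe set, with a difference of -0.0075 (95% interval -0.10 to 0.085, limma adjusted p = 0.933). At 1435751_at the wild-type hearts read 1897, 1980 and 1906 and the knockout hearts 1695, 1836 and 1841. All knockout hearts were lower there, by 7.12% of the mean, but the difference of -0.11 (SE 0.045, 95% interval -0.21 to -0.0057) had a limma adjusted p of 0.228. As deposited these groups overlapped, at 1805, 1990 and 1904 in wild type against 1713, 1868 and 1846 in knockout. The difference was then -0.070 (limma adjusted p = 0.504), and -0.051 centred on the array median (limma adjusted p = 0.673). The third Abcc9 probe set differed by -0.0040. The partners typical of cardiomyocytes and of endocrine cells, Kcnj11 and Abcc8, differed by -0.10 each (limma adjusted p = 0.538 and 0.373). None of the 4 channel genes passed at an unadjusted p under 0.05 at its brightest probe set either.

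Vtn encodes vitronectin, an adhesive protein bound by alpha-v integrins. It read 360, 339 and 377 in wild type against 319, 310 and 311 in knockout at 1420484_a_at. Every knockout heart was below every wild-type heart, and the mean was 12.5% lower, at 314 ± 4.81 against 358 ± 18.8 (SD, n = 3 each). After quantile normalisation, the difference of -0.18 (SE 0.057, 95% interval -0.31 to -0.055) had a limma adjusted p of 0.126, the smallest among the members after Higd1b. It was smaller under the other scalings: -0.11 as deposited (limma adjusted p = 0.387) and -0.094 centred on the array median (limma adjusted p = 0.517). At the weaker probe set, 1455098_a_at, the readings were 158, 161 and 181 in wild type against 154, 164 and 162 in knockout. Those groups overlapped, with a difference of -0.057 (limma adjusted p = 0.663). Of 5 tested genes for integrin subunits and partners of vitronectin 0 passed, with 1 higher at an unadjusted p under 0.05 and a median of 0.053.

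Endothelial cells, which line the vessels that pericytes cover, served as the comparison. Of 30 endothelial genes, each at its brightest probe set, 15 rose and 0 fell (limma, adjusted p under 0.05), where 2.97% of the 11486 genes tested rose; at an unadjusted p under 0.05, 20 were higher and 1 lower. Their median difference was 0.26, that of the 10 pericyte genes at their brightest probe sets 0.041, and that of all genes tested -0.014. Pecam1, the endothelial adhesion molecule CD31, read 604, 568 and 600 in wild type against 1049, 976 and 900 in knockout, a log2 rise of 0.71 (SE 0.061, limma adjusted p = 0.000950). Cd34 rose by 0.54, Ecscr by 0.64, Nos3, endothelial nitric oxide synthase, by 0.50, and Tek and Tie1, the angiopoietin receptor and its partner, by 0.49 and 0.42. These 6 genes passed under every alternative tried. Of the 30 genes 15 did not pass, but 27 had a positive difference and 3 a negative one. The 3 were the VEGF receptor Kdr at -0.039, Gpihbp1 at -0.13 and Robo4 at -0.25, none of them past the threshold. The count of risen endothelial genes was 9 without knockout replicate 1, 8 without knockout replicate 2 and 9 without wild type replicate 3. With all 6 hearts it was 10 with no filter on low values or no variance trend, and from 12 to 15 in the other settings.

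**Figure D2:**
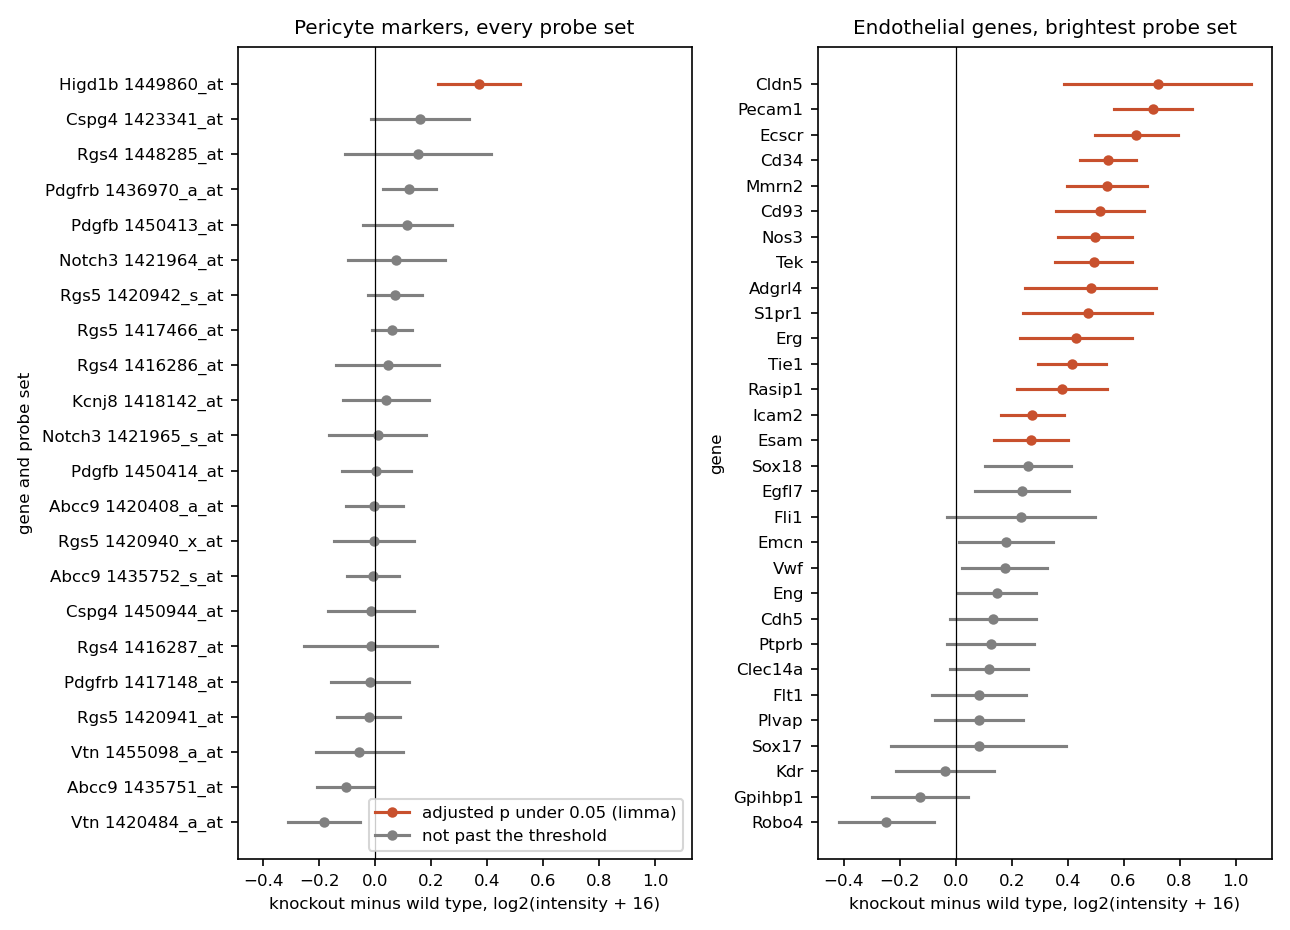
Knockout minus wild type on the log2(intensity + 16) scale for the 22 pericyte marker probe sets (left) and for the brightest probe set of 30 endothelial genes (right), with 95% intervals from the limma fit; red marks an adjusted p under 0.05. On the left Higd1b alone is red, at 0.37, and on the right 15 genes are red, from 0.27 for Esam to 0.72 for Cldn5, whose calls held in 5 and 9 of 15 alternatives.

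To test the difference itself, the mean log2 value of the 30 endothelial genes in a heart was subtracted from every probe set in that heart, and the same model was fitted. That mean was 8.91, 8.89 and 8.89 in wild type against 9.26, 9.20 and 9.12 in the knockout hearts, a difference of 0.29. Of the 22 pericyte probe sets 18 lay below the endothelial mean change, 0 above it and 4 did not pass (limma, Benjamini-Hochberg adjusted p under 0.05); none lay above it at an unadjusted p under 0.05 either. The count below ranged from 14 to 20 over the alternatives, with 14 without wild type replicate 3 or knockout replicate 1. These 18 make up 81.8% of the member probe sets, beside 77.6% of all probe sets tested below the endothelial mean and 0.937% above it. The share of pericyte probe sets below the endothelial rise is thus near that of the array as a whole. The median difference from the endothelial mean change was -0.29 for the members and -0.30 for all probe sets tested.

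Among the single members, the brightest Rgs5 probe set lay 0.23 below the endothelial mean change (95% interval of the difference -0.35 to -0.12, limma adjusted p = 0.00227). Kcnj8 lay 0.26 below it (-0.42 to -0.086, limma adjusted p = 0.00989), a call that ended without wild type replicate 3 (limma adjusted p = 0.0609) and without knockout replicate 2 (0.0538). The brighter Pdgfrb probe set lay 0.17 below it (-0.32 to -0.028, limma adjusted p = 0.0307), a call that ended in 5 of 15 alternatives: with no variance trend (0.0655) and without wild type replicate 1 (0.0726) or 2 (0.0818) or knockout replicate 1 (0.107) or 2 (0.0821). The brighter Pdgfb probe set lay 0.29 below it (-0.44 to -0.14, limma adjusted p = 0.00299). The Vtn probe set 1420484_a_at was the farthest, 0.48 below (-0.64 to -0.32, limma adjusted p = 0.000449). The calls of these Rgs5, Pdgfb and Vtn probe sets held in all 15 alternatives. Higd1b differed from the endothelial mean by 0.075 (-0.096 to 0.25, limma adjusted p = 0.387), so that a difference of either sign lies within its interval. The other 3 that did not pass were 1423341_at of Cspg4, 1450413_at of Pdgfb and 1448285_at of Rgs4, at -0.13, -0.18 and -0.14. The endothelial genes themselves were spread around their mean, of which each is a part. By the same test 9 of the 30 changed more than it and 6 less (limma adjusted p under 0.05), and the others did not pass.

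**Figure D3:**
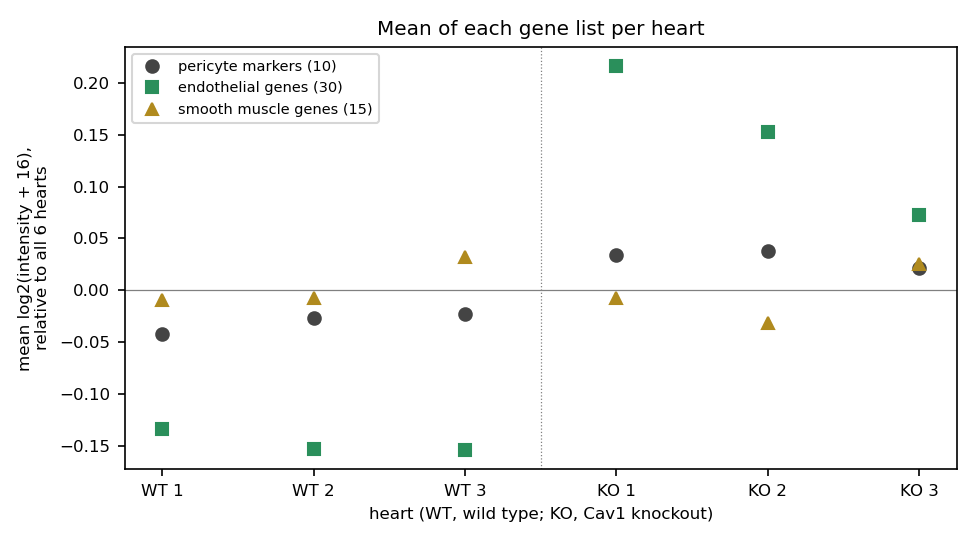
Mean log2(intensity + 16) of 3 gene lists in each heart, relative to the mean of all 6 hearts; circles are the 10 pericyte markers, squares the 30 endothelial genes and triangles the 15 smooth muscle genes, 1 probe set per gene. The endothelial means run from -0.15 to -0.13 in wild type and from 0.073 to 0.22 in knockout, and the pericyte means from -0.042 to -0.023 and from 0.021 to 0.038.

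As a mean per heart relative to all 6, the 10 pericyte markers had values of -0.042, -0.027 and -0.023 in wild type against 0.034, 0.038 and 0.021 in knockout hearts. The groups did not overlap, and the difference of means was 0.061. Without Higd1b it was 0.027, with wild-type means of -0.028, -0.012 and -0.00061 and knockout means of 0.016, 0.012 and 0.012. Such a separation was not particular to these markers. The means of the endothelial, Notch, macrophage and glial lists did not overlap either, while those of the smooth muscle, cardiomyocyte and fibroblast lists did. Further pericyte and mural cell genes, described below, also lay apart, from -0.076 to -0.041 in wild type and from 0.027 to 0.074 in knockout. So did the lists of contacts between endothelium and mural cells, of the Higd family and of liver genes. Of single probe sets tested, 12.3% lay apart above and 14% below. With the intensities as deposited, where wild type replicate 1 stood at -0.13, the difference was 0.11, and 0.078 without Higd1b. Centred on the array median it was 0.13, and 0.097 without Higd1b. These scalings moved the median of all probe sets tested to 0.032 and 0.051. The list means carry no test.

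Further genes reported from pericytes and mural cells gave calls in both directions, with most differences positive. Of 18 tested genes of that list 2 rose and 1 fell, with a median of 0.097, beside 0.041 for the 10 markers. By sign, 15 differences were positive and 3 negative. At an unadjusted p under 0.05, 4 were higher and 1 lower. Mcam, the adhesion molecule CD146 that endothelial cells also carry, read 221, 221 and 235 in wild type against 322, 293 and 298 in knockout, and rose by 0.40 (SE 0.060, limma adjusted p = 0.00998; 0.0607 without knockout replicate 1). Colec11, a collectin, rose by 0.60 (SE 0.086, limma adjusted p = 0.00845), from 518, 684 and 592 to 901, 903 and 931; its weaker probe set had a difference of 0.34 and did not pass (limma adjusted p = 0.114). Agtr1a, the angiotensin receptor of mural cells, read 855, 802 and 852 in wild type against 611, 672 and 737 in knockout. It fell by 0.31 (SE 0.068, limma adjusted p = 0.0469). That call ended in 10 of 15 alternatives, among them the intensities as deposited (0.112), centring on the array median (0.158) and every set of 5 hearts other than the one without knockout replicate 3, with limma adjusted p up to 0.158. Among the widely used markers in this list, Cd248 stood at -0.026, Anpep at 0.12, Ndufa4l2 at -0.013 and Tbx18 at 0.29, none past the threshold. Steap4, next by p after the 3 calls, stood at 0.14 (limma adjusted p = 0.158).

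Of 15 genes of smooth muscle, the vascular cell closest to the pericyte, Mustn1, a small nuclear protein first known from the musculoskeletal system, rose by 0.49 (SE 0.071, limma adjusted p = 0.00906; 0.0511 without knockout replicate 1 and 0.0532 without knockout replicate 2) and 0 fell, with 2 higher and 2 lower at an unadjusted p under 0.05. The median was -0.075, and 0.0051 when centred on the array median. Tagln and Actg2, contractile genes, stood at -0.14 and -0.22 (limma adjusted p = 0.171 and 0.131). Of 20 genes of angiopoietin, TGF-beta and other contacts between endothelium and mural cells, 5 rose and 0 fell, with 9 higher and 2 lower at an unadjusted p under 0.05. The 5 were Tek, Tie1, S1pr1, Smad1 by 0.50 and Tgfbr2 by 0.31, of which Tek, Tie1 and S1pr1 are also in the endothelial list. The calls of Tek, Tie1 and Smad1 held in all 15 alternatives, those of S1pr1 and Tgfbr2 in 8 each. Both of the latter ended with no filter or no variance trend and without wild type replicate 1 or 3 or knockout replicate 1 or 2, which left 3 of the 5.

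Markers of other cell types also passed the test. Of 12 macrophage genes 6 rose, among them the leukocyte phosphatase Ptprc by 0.75 and the complement gene C1qa by 0.31, and the list's mean relative to all hearts ran from -0.27 to -0.065 in wild type and from 0.14 to 0.22 in knockout. Of the 6 calls, 0 held without knockout replicate 1, and the list had 1 without knockout replicate 2. Leaving out wild type replicate 3 gave 2 calls and leaving out wild type replicate 1 gave 3; that of C1qa ended in 6 of 15 alternatives and that of Ptprc in 3. Of 13 fibroblast genes 3 rose and 1 fell, namely the collagens Col3a1 and Col1a1 by 0.65 and 0.51, Mfap5 by 0.38 and Clec3b, which fell by 0.65, with list means from -0.14 to 0.015 and from 0.0065 to 0.19. The call of Col1a1 held in all 15 alternatives, that of Col3a1 in 13, of Clec3b in 12 and of Mfap5 in 7. Without wild type replicate 3 or knockout replicate 1 the list had 1 higher and 0 lower, and without knockout replicate 2 it had 2 and 0. Of 5 tested fat cell genes Slc36a2 fell by 0.56 and 0 rose, with 4 lower at an unadjusted p under 0.05 and a median of -1.58. The differences of Ucp1, Adipoq and Pck1, at -2.45, -1.89 and -1.58, were larger but did not pass. No fat cell gene was called as deposited, centred on the array median, or without wild type replicate 3, knockout replicate 1 or knockout replicate 2, while 4 were lower with array weights, 3 without wild type replicate 1 and 2 without knockout replicate 3. This list had means from -0.054 to 1.38 and from -1.04 to -0.011. Of 4 glial genes the myelin gene Mbp fell by 0.48, a call that ended without wild type replicate 3, knockout replicate 1 or knockout replicate 2, with list means from 0.12 to 0.16 and from -0.21 to -0.026. None of 12 cardiomyocyte genes passed, also at an unadjusted p under 0.05. Of the 2 tested red cell genes and the 2 tested liver genes 0 passed, with Slc4a1 of red cells lower and Ahsg of liver higher at an unadjusted p under 0.05. The liver markers Alb, Apoa1, Fgb and Apoh were too low to be tested. No intensity in the table is 0, so no marker can be said to be at 0. The part of these cell types in the values of Higd1b, Vtn and the other members was not tested.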

How the data were processed

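RNA of 6 hearts was measured on 6 arrays. Per the labels' protocols, Trizol was used for extraction and 2 ug of RNA was labelled with biotin; the submitters' processing notes name GCOS 1.4. The deposited table holds 1 linear intensity per probe set and array, while its summarisation and scaling are not stated in the sources used here. The 64 control probe sets were left out. Trimmed means (2% at each end) differed by 8.42%, above the limit of 5%, so intensities were quantile normalised. The upper 50% by mean of log2(intensity + 16), 22519 probe sets, were tested genome-wide with limma 3.58.1 (lmFit, eBayes with trend, two-sided) in R 4.3.3, with Benjamini-Hochberg adjustment over all of them; the lowest tested had a mean log2 value of 5.92. All 22 member probe sets passed this filter. The fit was tested on simulated data. Precision is limited by having 3 arrays per group.

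Symbols came from the platform annotation of 2016; all 10 member symbols are in the RefSeq table of GRCm38.p6, used for names alone. Lists were summarised at the brightest probe set per gene. The genes named are all members and, of the other lists, those past the threshold or up to 4 with the smallest p; Cd248, Anpep, Ndufa4l2, Tbx18, Kdr, Gpihbp1 and Robo4 were named after their values were seen. Members, lists and tests were chosen with earlier results of these data known. No heart was left out of the values given, and no label names a batch.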

Additional observations from a re-analysis of the deposited data

How the results depend on the processing

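Alternatives were the intensities as deposited, centring on the array median, offsets of 1 and 64, other filters (none, upper 75%, upper 25%), no variance trend, array weights, and leaving out each heart. No labels pair the hearts, so no pairing was fitted. With all 6 hearts, the pericyte count was 1 higher and 0 lower under each of the first 9, and also at the brightest probe set per gene, and the direction and call of Higd1b did not change. When each heart was left out in turn, the pericyte count higher ran from 0 to 1 and the endothelial count from 8 to 13; averaging the probe sets of each gene gave an endothelial count of 15. The pericyte count below the endothelial mean change ran from 14 to 18 when a heart was left out, and was 17 with an offset of 1, 20 with an offset of 64, 19 with array weights and 14 of 16 tested in the upper 25%. Over all probe sets, 714 were called, and 411 without a variance trend, 1171 with array weights, 470 without wild type replicate 1, 299 without wild type replicate 3, 189 without knockout replicate 1 and 227 without knockout replicate 2. No member outside the threshold crossed it under any alternative, but small differences changed sign. As deposited, the values were 0.048 for Pdgfrb 1417148_at, 0.011 for Rgs5 1420941_at, 0.034 for Rgs5 1420940_x_at, 0.041 for Rgs4 1416287_at, 0.045 for Cspg4 1450944_at, 0.0081 for Abcc9 1435752_s_at, 0.024 for Abcc9 1420408_a_at and 0.0070 for Vtn 1455098_a_at. Centred on the median the same probe sets, in the same order, stood at 0.067, 0.029, 0.052, 0.059, 0.063, 0.027, 0.043 and 0.026; these scalings moved the median of all probe sets tested to 0.032 and 0.051. With array weights, Pdgfrb 1417148_at stood at 0.0022, Pdgfb 1450414_at at -0.0015, Rgs5 1420941_at at 0.00042, Cspg4 1450944_at at 0.0051, Abcc9 1435752_s_at at 0.0095 and Kcnj8 at -0.015. Leaving out 1 heart gave -0.061 to 0.033 for Pdgfrb 1417148_at, -0.036 to 0.026 for Pdgfb 1450414_at, -0.075 to 0.0074 for Rgs5 1420941_at, -0.068 to 0.057 for Rgs5 1420940_x_at, -0.023 to 0.088 for Rgs4 1416286_at, -0.14 to 0.063 for Rgs4 1416287_at, -0.052 to 0.026 for Cspg4 1450944_at, -0.075 to 0.058 for Notch3 1421965_s_at, -0.036 to 0.020 for Abcc9 1435752_s_at, -0.031 to 0.027 for Abcc9 1420408_a_at and -0.0038 to 0.10 for Kcnj8. The cause of these sign changes was not tested. The alternatives for lists and genes that are not members, and for each member against the endothelial mean change, and the mean without Higd1b, were chosen after seeing the data.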
